A study of Mus musculus with 10 samples.

Results

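The genes described here are 9 that leukocytes of most lineages transcribe and that are commonly read together as a gauge of how much leukocyte RNA a tissue holds: Ptprc, Lcp1, Coro1a, Laptm5, Cd53, Cd52, Arhgdib, Cd48 and Cytip. They were selected by gene symbol, and all 9 had a row among the 22329 genes of the table and passed the filter on low values, which 12497 genes met by reaching 1 TPM in 5 or more libraries. TPM is a gene's share of a library's transcripts, corrected for transcript length and scaled to a library sum of 1000000. The libraries come from 10 B16F10 tumours, a mouse melanoma line grown under the skin of C57BL6/J mice. All tumours received 1 injection of 80 µg mRNA directly into the tumour and were collected 7 days afterwards. In control tumours 1 to 5 the mRNA encoded luciferase, and in cytokine tumours 6 to 10 it combined 4 components at 20 µg apiece, coding for mouse IL-12 in single-chain form, IL-15sushi, GM-CSF and IFNalpha. There was no uninjected group, so both groups carry the injection and foreign mRNA itself.

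Leukocytes share a set of surface, cytoskeletal and signalling proteins that other tissues use little or replace by related proteins. CD45, encoded by Ptprc, is the surface phosphatase by which blood-derived cells are usually recognised, and it sets the activity of Src-family kinases. L-plastin and coronin 1A organise actin at the leading edge and at immune synapses, and the remaining proteins of the set act in receptor turnover, membrane organisation, adhesion and the control of small GTPases. TPM is a share of the library. In bulk tumour RNA, more leukocytes, more RNA of these genes per leukocyte and less RNA from other cells therefore cannot be told apart.

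In the cytokine tumours 7 of the 9 genes rose, by 2.01 to 3.54 on the log2(TPM + 1) scale, none fell, and Cytip and Arhgdib did not pass the test. The test was limma fitted over all 12497 genes, with 5 tumours a group and a Benjamini-Hochberg adjusted p under 0.05. Over all genes tested 10.4% were called in either direction and 7.41% were called higher, which is 926 genes higher and 378 lower. After rescaling without mitochondrial genes that split was 827 higher and 904 lower, while the count of members called stayed at 7. The median change was 2.70 over the 9 genes and -0.18 over all genes tested, and the latter was -0.03 with median-ratio scaling, -0.37 without mitochondrial genes and -0.28 without the 50 most abundant genes. Arhgdib was the member that departed from the others: it was already abundant in every control tumour and its mean differed 1.49-fold between groups, against 4.60-fold to 17.3-fold for the 7 genes called. The values were strongly uneven between tumours of the same group, with cytokine tumour 7 the highest and cytokine tumour 10 the lowest of its group in 8 of 9 genes each.

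The libraries differed in other ways alongside these genes. Mitochondrial genes took 16.2% to 27.9% of the TPM in control tumours and 4.44% to 19.2% in cytokine tumours. Cytokine tumour 7 listed 276 of 1496 odorant, vomeronasal and trace amine receptor genes above 0, against 11 to 40 in the other libraries, and its 10 melanocyte lineage genes averaged 1.72 on the log2(TPM + 1) scale, against 6.84 to 9.88 elsewhere. The part of these differences in the results was not tested. Some means that rest on tumour 7 are therefore also given without it. Means given only with tumour 7 may depend on it too.

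Promoter sequence was read for the members, whether called or not, because PU.1 (encoded by Spi1) and RUNX factors are known regulators of blood-cell genes. The RefSeq promoter table for build GRCm38.p6, covering 250 bases before to 50 after each annotated start, had windows for 8 of the 9 genes; the gene without an entry was Cd52. GAGGAA, the core of the PU.1 motif, was present on either strand in windows of 5 of the 8 genes (Ptprc, Laptm5, Cd53, Cytip and Arhgdib), while 31.3% of all 27025 genes in the table had it in a window. TGTGGT, the core of the RUNX motif, was present in 4 of the 8 (Cd48, Cytip, Cd53 and Arhgdib), against 18.9% of all genes. A match of 6 letters is a description of the sequence only. The 250 bases upstream of the start are shown for 4 of the genes with a GAGGAA match there, in the direction of transcription, with that match or its complement TTCCTC in capitals. They lie at chr1:138175306-138175555 (minus strand), chr4:130913066-130913315 (plus strand), chr3:106790150-106790399 (minus strand) and chr2:58160123-58160372 (minus strand) of GRCm38.p6.
Ptprc: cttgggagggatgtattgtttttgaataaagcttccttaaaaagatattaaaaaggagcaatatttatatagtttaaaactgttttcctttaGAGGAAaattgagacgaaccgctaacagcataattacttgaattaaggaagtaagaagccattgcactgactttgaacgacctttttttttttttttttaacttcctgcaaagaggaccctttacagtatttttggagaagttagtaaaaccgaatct
Laptm5: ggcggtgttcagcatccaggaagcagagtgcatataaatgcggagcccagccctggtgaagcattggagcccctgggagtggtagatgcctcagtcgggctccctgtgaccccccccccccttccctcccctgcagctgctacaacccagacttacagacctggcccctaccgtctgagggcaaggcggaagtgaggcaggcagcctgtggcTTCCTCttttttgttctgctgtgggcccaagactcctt
Cd53: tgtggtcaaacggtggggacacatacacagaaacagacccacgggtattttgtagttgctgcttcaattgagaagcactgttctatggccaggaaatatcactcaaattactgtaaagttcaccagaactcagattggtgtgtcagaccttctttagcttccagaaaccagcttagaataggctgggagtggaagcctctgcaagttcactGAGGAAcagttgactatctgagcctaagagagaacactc
Cytip: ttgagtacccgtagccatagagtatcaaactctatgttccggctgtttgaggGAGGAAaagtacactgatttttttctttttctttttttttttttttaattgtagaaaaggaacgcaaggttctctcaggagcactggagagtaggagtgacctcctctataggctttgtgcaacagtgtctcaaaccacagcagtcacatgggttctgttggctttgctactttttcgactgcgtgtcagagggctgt
The match began 158 bases before the start in Ptprc, 198 in Cytip, 39 in Cd53 and 38 in Laptm5, so its position differed between the genes, and Cd53 and Cytip each held a second match just after the start.

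Among the surface and membrane proteins of the set, the log2 changes ran from 2.66 in Laptm5 to 3.54 in Ptprc. Ptprc was at 26.1, 22.2, 22.2, 19.5 and 7.63 TPM in control tumours 1 to 5 and at 354, 852, 302, 145 and 40.6 TPM in cytokine tumours 6 to 10. The groups did not overlap, although cytokine tumour 10 lay much closer to the controls than to tumour 7. The group means were 19.6 ± 7.07 and 339 ± 313 TPM (SD, n = 5), or 211 TPM in the cytokine group without tumour 7. The rise was 3.54 ± 0.67 (SE) in log2 units (limma adjusted p = 0.0145), and without cytokine tumours 6 and 7 together it was 2.68 and not called (limma adjusted p = 0.0735).

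Cd52, which encodes a very short peptide carried on a lipid anchor and a glycan and is the target of alemtuzumab in its human form, was at 97.0, 46.3, 98.1, 60.4 and 18.4 TPM in control tumours and at 517, 2059, 645, 486 and 184 TPM in cytokine tumours. All cytokine values were above all controls, and tumour 7 stood far above the rest of its group. The rise was 3.36 ± 0.61 (SE; limma adjusted p = 0.0129), and the cytokine mean of 778 TPM was 458 TPM without tumour 7.

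Cd48, a lipid-anchored receptor of the SLAM family that binds CD2 and CD244 in mice, was the least abundant gene called. Its values were 4.65, 8.18, 3.20, 3.35 and 2.97 TPM in controls and 50.9, 178, 28.9, 15.1 and 8.85 TPM in cytokine tumours. The groups did not overlap, but tumour 10 exceeded control tumour 2 only narrowly. The rise of 2.70 ± 0.66 (SE; limma adjusted p = 0.0277) was lost as a call without control tumour 1, 3, 4 or 5 or cytokine tumour 6 or 8, and the cytokine mean of 56.4 TPM became 25.9 TPM without tumour 7.

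Cd53, a tetraspanin that groups receptors in the leukocyte membrane, was at 19.1, 22.7, 19.5, 14.4 and 1.48 TPM in controls and at 146, 161, 103, 96.0 and 21.3 TPM in cytokine tumours. Here the groups overlapped, since control tumour 2 lay above cytokine tumour 10. Control tumour 5 was nearly devoid of it. The rise was 2.76 ± 0.68 (SE; limma adjusted p = 0.0290), a call lost without control tumour 4 or without any 1 of cytokine tumours 6, 7, 8 and 9.

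Laptm5, a lysosomal membrane protein of blood cells that promotes the breakdown of antigen receptors, was at 253, 86.3, 172, 81.2 and 23.3 TPM in control tumours and at 536, 1379, 791, 682 and 193 TPM in cytokine tumours. Control tumour 1 exceeded cytokine tumour 10, so the groups overlapped. The rise was 2.66 ± 0.64 (SE; limma adjusted p = 0.0263). The call was kept in only 3 of the 10 fits that left 1 tumour out, those without control tumour 1 or 3 or cytokine tumour 10, with log2 changes from 2.17 to 3.07.

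Of the actin-binding members, Lcp1 kept its call in 10 of 10 fits with 1 tumour left out and Coro1a in 9. Lcp1, or L-plastin, bundles actin filaments in leukocytes, and it was at 42.3, 39.2, 52.4, 42.5 and 27.9 TPM in controls and at 364, 540, 324, 290 and 124 TPM in cytokine tumours. The groups did not overlap, and the lowest cytokine value, in tumour 10, was well above the highest control, in tumour 3. It had the smallest adjusted p of the 9 genes, 0.00508 in the limma fit, with a rise of 2.86 ± 0.35 (SE). It was also the only member called without cytokine tumours 6 and 7 together (log2 change of 2.47, limma adjusted p = 0.0452).

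Coro1a, which binds actin and the Arp2/3 complex and is needed for the survival and migration of T cells, was at 25.6, 16.1, 12.7, 19.2 and 8.82 TPM in controls and at 59.9, 123, 109, 63.3 and 23.98 TPM in cytokine tumours. Control tumour 1 was just above cytokine tumour 10, the single overlap. The rise of 2.01 ± 0.43 (SE; limma adjusted p = 0.0181) was the smallest among the genes called, and without cytokine tumour 6 its limma adjusted p was 0.0502.

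Among the members that act on small GTPases and their regulators, neither was called. Cytip, which binds cytohesin 1 and limits integrin adhesion of lymphocytes and dendritic cells, was at 10.1, 2.62, 6.11 and 0.986 TPM in control tumours 1 to 4, was listed at 0 in control tumour 5, and was at 17.8, 25.5, 21.0, 27.5 and 2.62 TPM in cytokine tumours. Cytokine tumours 6 to 9 were above all controls and tumour 10 lay inside the control range. The difference of 2.19 ± 0.72 (SE) had a limma adjusted p of 0.0740, and it passed without cytokine tumour 10 (2.73, limma adjusted p = 0.0105) and with library quality weights (limma adjusted p = 0.0112).

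Arhgdib, a GDP-dissociation inhibitor that keeps small GTPases such as Rac1 and Cdc42 inactive in the cytosol and is typical of blood cells, was at 446, 719, 460, 696 and 624 TPM in controls and at 839, 1212, 632, 973 and 743 TPM in cytokine tumours. Control tumours 2 and 4 lay above cytokine tumour 8, and the order of tumours was unlike that of the other members: control tumour 1, the highest of its group in 4 of the 9 genes, was the lowest in Arhgdib, and control tumour 5, lowest in 8 of 9 genes, had 624 TPM. The difference was 0.57 (95% interval 0.03 to 1.11; limma adjusted p = 0.142) and passed in none of the 10 fits with 1 tumour left out. Which cells of the control tumours carried this transcript was not tested. The 10 melanocyte lineage genes summed to 2697 to 18721 TPM in control and 43.0 to 19282 TPM in cytokine tumours. Control tumour 1 was the lowest of its group in both this sum and Arhgdib, while cytokine tumour 7 was the lowest of its group in the sum and the highest in Arhgdib.

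**Figure D1:**
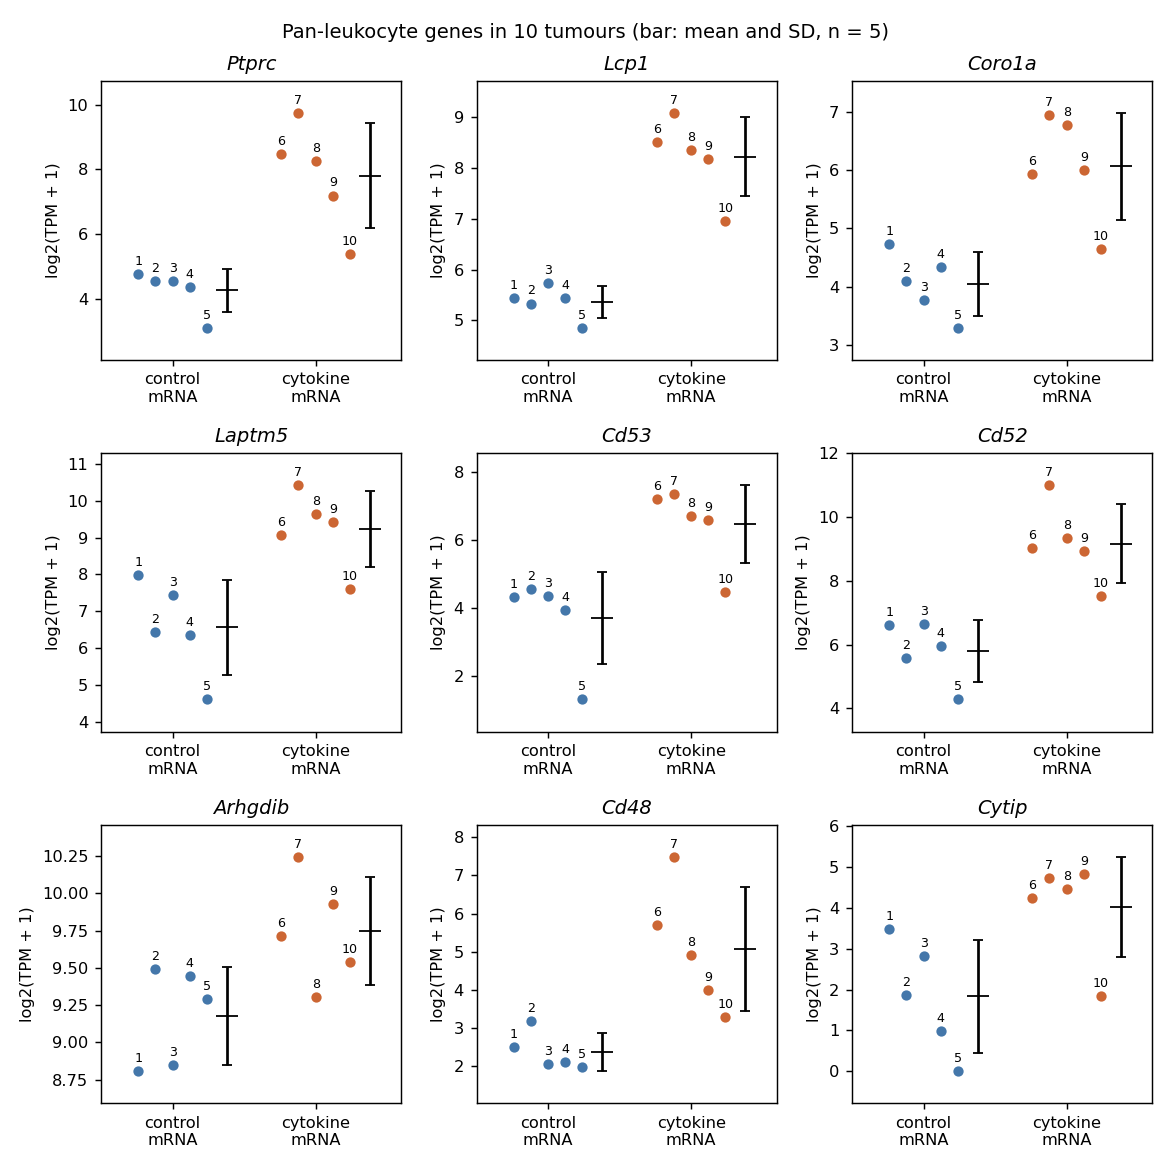
Levels of the 9 genes on the log2(TPM + 1) scale in control tumours 1 to 5 (blue) and cytokine tumours 6 to 10 (orange), 1 numbered point per tumour; the bar at the right of each group is its mean and SD over 5 tumours, and axes differ between panels. Tumour 7 is highest in 8 panels, tumour 10 is the lowest cytokine tumour in 8, and control tumour 5 is the lowest control in all panels but that of Arhgdib.

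The groups did not overlap in 4 of the 9 genes (Ptprc, Lcp1, Cd52 and Cd48), compared with 5.45% of all genes tested without overlap in that direction. An exact permutation test per gene, two-sided, gave those 4 a p of 0.00794, the smallest that 5 against 5 tumours allow, and gave 0.0159 for Coro1a, Laptm5 and Cd53, 0.0317 for Arhgdib and 0.0397 for Cytip. Adjusted over all genes tested, the smallest p this test gave was 0.0860, so it called 0 genes, with 3785 genes at an unadjusted p under 0.05 and 1304 called by limma.

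Averaged over the 9 genes, the level per tumour was 5.41, 5.01, 5.14, 4.77 and 3.64 on the log2(TPM + 1) scale in control tumours and 7.54, 8.56, 7.52, 7.23 and 5.70 in cytokine tumours. Every cytokine tumour was above every control, and cytokine tumour 10 lay nearest to them. The group means were 4.79 ± 0.69 and 7.31 ± 1.03 (SD, n = 5), a difference of 2.52, which was 2.21 without tumour 7 and 2.92 without tumour 10. Leaving out Arhgdib, a choice made after its values were seen, the group means were 4.24 ± 0.79 and 7.00 ± 1.13 and the difference was 2.76, or 6.78-fold.

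TPM corrects for length, so levels can be ordered between genes within a tumour. Arhgdib was the most abundant of the 9 in all 5 controls, where it made up 67.2% of their summed TPM, and ranged from rank 1 to rank 3 in the cytokine tumours, where it made up 26.7%. Laptm5 ranked 2 to 3 in controls and 1 to 2 in cytokine tumours, and Cd52 3 to 4 and 1 to 3. Their part of the sum went from 14.0% to 21.7% and from 7.30% to 23.6%. Cytip ranked 8 or 9 of the 9 in every tumour. A mean of log2 values, unlike a sum of TPM, gives each gene the same weight.

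To see which members moved more or less than the rest, each tumour's level of a gene was taken relative to the mean of the other 8 on the log2 scale and fitted with limma over the same 12497 genes, with the mean of all 9 subtracted from non-members. In that fit 90.6% of all genes tested were called lower and 0.488% higher, a split that follows from subtracting a mean that itself differed by 2.52. With that many genes past the threshold the adjustment over all genes is close to none, so relative values are given below with 95% intervals or unadjusted p, and passing that threshold is close to an unadjusted test. Of the 9 genes, 1 was past the threshold lower and 1 higher. Arhgdib fell relative to the others by 2.19 on the log2 scale (95% interval -3.61 to -0.78), which stayed past the threshold in 10 of 10 fits with 1 tumour left out. The relative difference of Ptprc was 1.15 ± 0.53 (SE; 95% interval 0.04 to 2.27), and of the fits with 1 tumour left out it passed only without cytokine tumour 10. With Arhgdib left out of the mean it did not pass. For the other 7 the intervals of the relative change included 0. They ran from -1.65 to 0.52 in Coro1a at the lower end and from -0.16 to 2.05 in Cd52 at the upper end, and such intervals do not show that these genes changed alike.

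Several of these proteins have relatives that most cell types make. Of 16 relatives, 14 could be tested, 1 rose and none fell, with a median log2 change of -0.04. Over all genes tested 7.41% were called higher, so a count of 1 in 14 is near that share. Pls3, the plastin of solid tissues, was at 25.4 ± 3.75 TPM in controls and 18.8 ± 9.21 in cytokine tumours, with 4.53 TPM in tumour 7. Coro1b and Coro1c, the coronins of most other cells, differed by 0.42 and -0.50 on the log2 scale, and Laptm4a and Laptm4b, lysosomal proteins related to Laptm5, by 0.65 and -0.33 (limma adjusted p of 0.0574 and 0.553). Arhgdia, the ubiquitous GDP-dissociation inhibitor of the same family, was at 400 ± 28.7 and 255 ± 121 TPM, a difference of -0.80 (95% interval -1.52 to -0.08; limma adjusted p = 0.127).

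Among the broadly made tetraspanins, Cd9, Cd63, Cd82 and Cd151 differed by 0.14, 0.54, 0.71 and 0.01 on the log2 scale, and Cd81 by -0.97 (limma adjusted p = 0.0539); none was called. The relative that rose was Ptpre, a receptor-type phosphatase with expression in blood cells as well, from 8.26 ± 1.499 to 34.8 ± 17.8 TPM (1.80 ± 0.37 in log2 units, SE, with a limma adjusted p of 0.0162). Its close relative Ptpra was at 57.7 ± 4.49 and 54.1 ± 6.91 TPM. Grasp, the neuronal scaffold related to Cytip and also called Tamalin, differed by -0.49, and Pls1 and Arhgdig were below the filter.

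Expressed as a share of each family's summed TPM, the mean share of the leukocyte member was higher in the cytokine group in all 6 families. Lcp1 made up 62.7%, 60.0%, 62.7%, 67.0% and 53.7% of the plastin TPM (with Pls1 and Pls3) in controls and 94.9%, 99.2%, 93.9%, 91.2% and 82.7% in cytokine tumours, with no overlap. The share of Ptprc among Ptprc, Ptpra and Ptpre was 22.4% ± 6.84 and 69.4% ± 19.4 (SD, n = 5), and that of Arhgdib among Arhgdib, Arhgdia and Arhgdig 59.0% ± 4.54 and 77.0% ± 11.3, both without overlap. For Arhgdib the gap was narrow, from 63.2% in control tumour 4 to 65.0% in cytokine tumour 10. Arhgdib itself was not called, and the log2 change of Arhgdia was -0.80. These shares are descriptions and were not tested.

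In the remaining families the groups overlapped. Coro1a held 9.61% ± 3.54 of the TPM of Coro1a, Coro1b and Coro1c in controls and 35.5% ± 15.4 in cytokine tumours, and Laptm5 held 31.3% ± 14.6 and 65.7% ± 16.2 of its family. Cd53 remained a minor tetraspanin in either group, with 1.57% ± 0.92 and 9.52% ± 5.95 of the TPM of 6 tetraspanins.

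**Figure D2:**
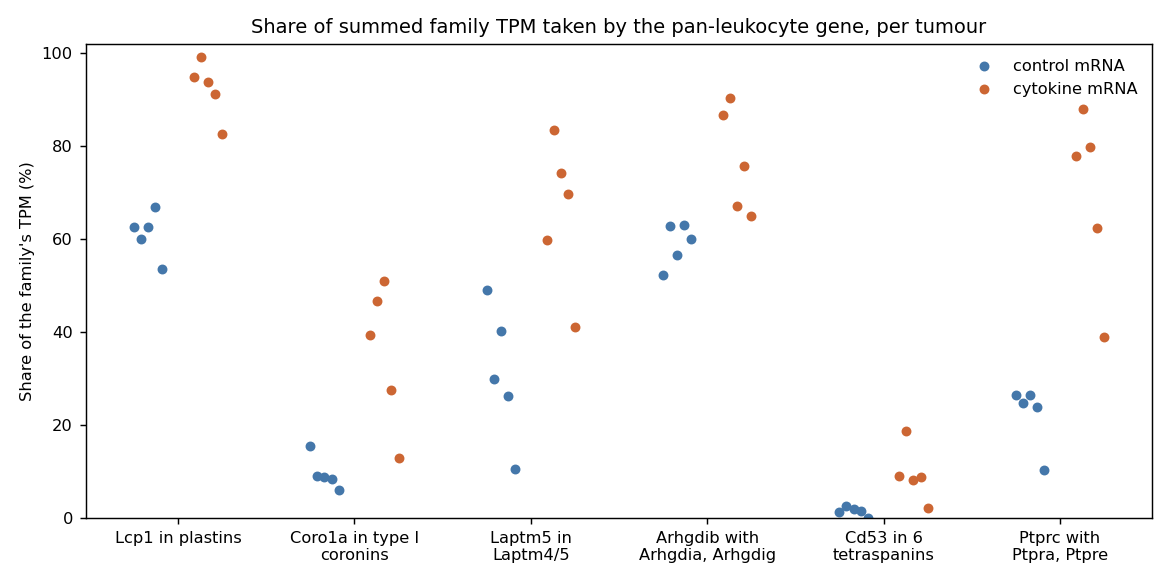
Percentage of the summed family TPM taken by the leukocyte member, 1 point per tumour, for control (blue) and cytokine (orange) tumours. The groups are apart for Lcp1, Arhgdib and Ptprc and overlap for Coro1a, Laptm5 and Cd53, and the lowest cytokine share in all 6 families is that of tumour 10, from 2.33% for Cd53 to 82.7% for Lcp1.

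Known partners and substrates of the 9 proteins were read next. Of 14, 13 were tested, 4 rose and none fell, with a median log2 change of 0.87, against 7.41% of all genes tested called higher. Cd2 and Cd244, the receptors that CD48 binds, rose from 2.76 ± 1.82 to 78.7 ± 66.5 TPM and from 1.18 ± 0.54 to 7.97 ± 5.93 TPM (limma adjusted p of 0.0308 and 0.0276). Of the Src-family kinases that CD45 regulates, Lyn rose by 2.31 ± 0.54 (SE; limma adjusted p = 0.0244), while Lck, the kinase of T cells, was at 7.94 ± 4.32 and 44.8 ± 32.2 TPM (limma adjusted p = 0.0790) and Fyn at 30.2 ± 11.9 and 45.2 ± 15.7 TPM.

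The calls of Cd2, Lyn and Cd244 were kept in 2, 6 and 4 of the 10 fits with 1 tumour left out. Csk, the kinase that opposes CD45, was level at 86.7 ± 10.1 and 88.2 ± 20.8 TPM (95% interval of the log2 change -0.46 to 0.46). Cyth1, the partner of Cytip, was at 24.1 ± 20.2 and 68.8 ± 40.8 TPM and was not called. Ptprcap, the CD45-associated protein, was below the filter at no more than 0.781 TPM.

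Among the actin machinery and GTPases served by Coro1a, Lcp1 and Arhgdib, Actr3, a subunit of the Arp2/3 complex, rose from 130 ± 9.54 to 240 ± 36.6 TPM (0.87 ± 0.17 in log2 units, SE, with a limma adjusted p of 0.0156), without overlap between groups. Actr2 and Arpc1b of the same complex differed by 0.37 and 0.90 and were not called. The GTPases Rac1, Cdc42 and Rhoa differed by 0.11, 0.54 and -0.03 (limma adjusted p of 0.726, 0.119 and 0.926).

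**Figure D3:**
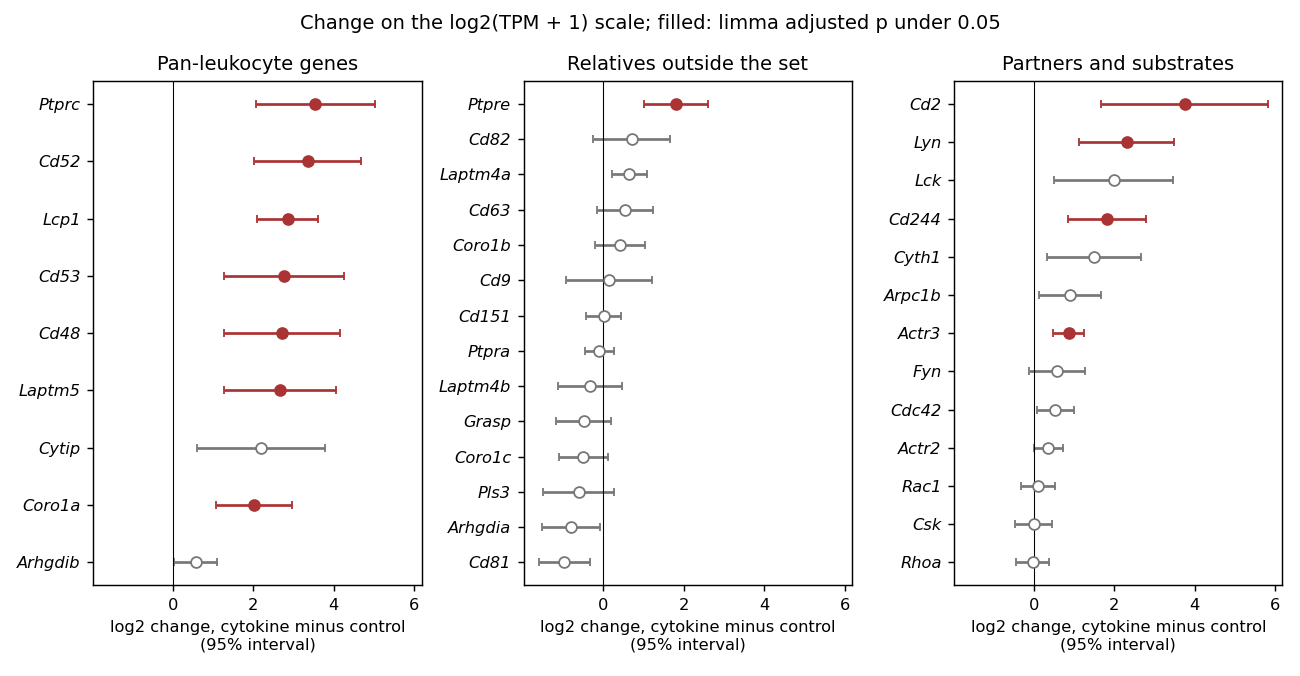
Log2 change (cytokine minus control tumours) with its 95% interval from the limma fit for the 9 genes, their tested relatives and their tested partners; filled red points passed an adjusted p of 0.05. The 9 genes lie between 0.57 and 3.54, the relatives other than Ptpre between -0.97 and 0.71, and the partners between -0.03 and 3.75.

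A wider list held 28 genes with expression mainly in blood cells. All 28 were tested, 24 rose and none fell, with a median log2 change of 2.62, and 17 had groups without overlap. The shares over all genes tested were 7.41% called higher and 5.45% higher without overlap. The largest changes were in Myo1f, a class I myosin of neutrophils and macrophages (12.7 ± 12.1 to 110 ± 66.9 TPM), Spi1, the gene of PU.1 (29.7 ± 18.6 to 353 ± 284 TPM), Evi2b, a membrane protein of blood cells (14.4 ± 7.18 to 240 ± 245 TPM, or 139 TPM without tumour 7), and Fyb, an adaptor of integrin activation (18.1 ± 8.25 to 249 ± 212 TPM, or 165 TPM without tumour 7). The limma adjusted p values were 0.0200, 0.0270, 0.0191 and 0.0156, and Fyb alone of the 4 was called in every fit with 1 tumour left out, while Myo1f was lost in 3, Spi1 in 6 and Evi2b in 1. The 4 not called were Lsp1, Ptpn6, Arhgap30 and Tagap, named because they are the exceptions. Arhgap30, like Arhgdib, was already at 44.1 ± 4.14 TPM in controls and differed by 0.57, and Ptpn6, the phosphatase SHP-1, was at 108 TPM in cytokine tumour 10 against 1057 to 2043 TPM in tumours 6 to 9. Relative to the mean of the 9 genes, 2 of the 28 were past the threshold lower (Arhgap30 and Tagap) and none higher, and the median relative change was 0.10.

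The markers of leukocyte lineages were then set against the mean of the 8 members other than Arhgdib, and these distances are descriptions. For macrophages and monocytes, the mean of 12 markers minus the 8-gene mean averaged 0.10 ± 0.29 over the 5 control tumours and 0.05 ± 0.11 over the 5 cytokine tumours (SD, log2 units). Of these 12 genes 9 rose, and relative to the mean of the 9 members none passed in either direction. The largest rises were in the scavenger receptor gene Msr1 (3.52 ± 0.60, SE), the lysozyme gene Lyz2 (3.35 ± 0.79), the integrin gene Itgam (3.21 ± 0.66) and Csf1r, the receptor of macrophage colony-stimulating factor (2.92 ± 0.70), with limma adjusted p from 0.0114 to 0.0266. The call of Msr1 was kept in 10 of the 10 fits with 1 tumour left out, that of Itgam in 9, of Lyz2 in 5 and of Csf1r in 3.

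The T cell genes came next. The mean of 11 T cell markers minus the 8-gene mean was -3.10, -3.40, -3.28, -2.95 and -2.87 in control tumours and -1.22, -1.14, -2.13, -2.89 and -2.98 in cytokine tumours, in log2 units. Tumours 6, 7 and 8 were outside the control range and tumours 9 and 10 were within it. The upper end of that range was control tumour 5, where 10 of the 11 markers were at 0. Tumour 9, at -2.89, lay above the other controls, of which the highest was at -2.95. All 9 T cell genes tested rose, and 6 of them were past the threshold relative to the mean of the 9 members: Cd3e by 2.53, Trac by 2.42, Cd8a by 1.74, Trbc2 by 1.65, Cd3g by 1.63 and Cd8b1 by 1.39 (unadjusted limma p from 0.000747 to 0.0307). With Arhgdib left out of the mean, 4 of the 6 still passed, and Trbc2 and Cd8b1 did not. Relative to the mean of the 9 members, Cd3e, Trac, Cd8a and Cd3g passed in 10 of 10 fits with 1 tumour left out, Trbc2 in 6 and Cd8b1 in 5. Without that subtraction, the calls of Cd3e and Cd8a were kept in 10 of 10 such fits, that of Trac in 6 and that of Trbc2 in 4. The relative change of Cd4 was -0.07, with 0 to 1.91 TPM in controls and 1.27 to 25.6 TPM in cytokine tumours. At such low control values it depends on the pseudocount, so no direction relative to the members is drawn for Cd4. Trbc2 has a near-identical copy, Trbc1, so its level is uncertain.

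Among cytotoxic genes 3 of the 6 tested were past the threshold relative to the members. Gzma, Nkg7 and Gzmb, a granzyme, a granule membrane protein and the main apoptosis-inducing granzyme, were higher relative to the mean by 2.65, 2.04 and 1.43 (unadjusted limma p of 0.00866, 0.00255 and 0.0200), the last no longer passing without Arhgdib in the mean and in 3 of 10 fits with 1 tumour left out. Prf1 (0.87), Klrk1 (0.82) and the NK receptor gene Klre1 (-0.01) did not pass. Klre1 was at no more than 0.82 TPM in controls and at 2.09 to 8.96 TPM in cytokine tumours, without overlap. Such low control values make its relative change depend on the pseudocount, so no direction relative to the members is drawn for it. The cytokine mean of Gzma was 342 TPM and 95.7 TPM without tumour 7. Without subtraction of the members' mean, the call of Gzma was kept in 3 of 10 fits with 1 tumour left out. Those of Nkg7, Gzmb and Prf1 were kept in 10.

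The B cell and dendritic cell lists held fewer calls. Of 3 B and plasma cell genes tested none was called; Ighm was at 15.3 ± 13.3 and 51.4 ± 42.3 TPM and Igkc at 17.6 ± 20.6 and 85.5 ± 85.7 TPM. Of 7 dendritic cell genes 3 rose, with Siglech by 1.95 ± 0.47, Xcr1 by 1.81 ± 0.38 and Batf3 by 1.57 ± 0.43 (SE). These calls were kept in 3, 10 and 2 of the 10 fits with 1 tumour left out, and that of Batf3 was lost at a pseudocount of 0.1 (limma adjusted p = 0.0932). No direction relative to the members is drawn for this list, since it turned with the pseudocount: at 0.1 the changes of Xcr1 and Siglech were 3.38 and 4.35, above the 2.68 of the members' mean, whereas at 1 they were below its 2.52. Both neutrophil genes tested, S100a8 and Csf3r, rose, and 5 of 8 neutrophil markers were at 0 in all controls. Of those 5, S100a9 reached 19.2 TPM in the cytokine tumours, while Ly6g, Mpo, Elane and Retnlg reached no more than 3.39 TPM there. The call of S100a8 was kept in 1 of 10 fits with 1 tumour left out and lost at a pseudocount of 0.1 (limma adjusted p = 0.0635), and that of Csf3r was kept in 5.

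**Figure D4:**
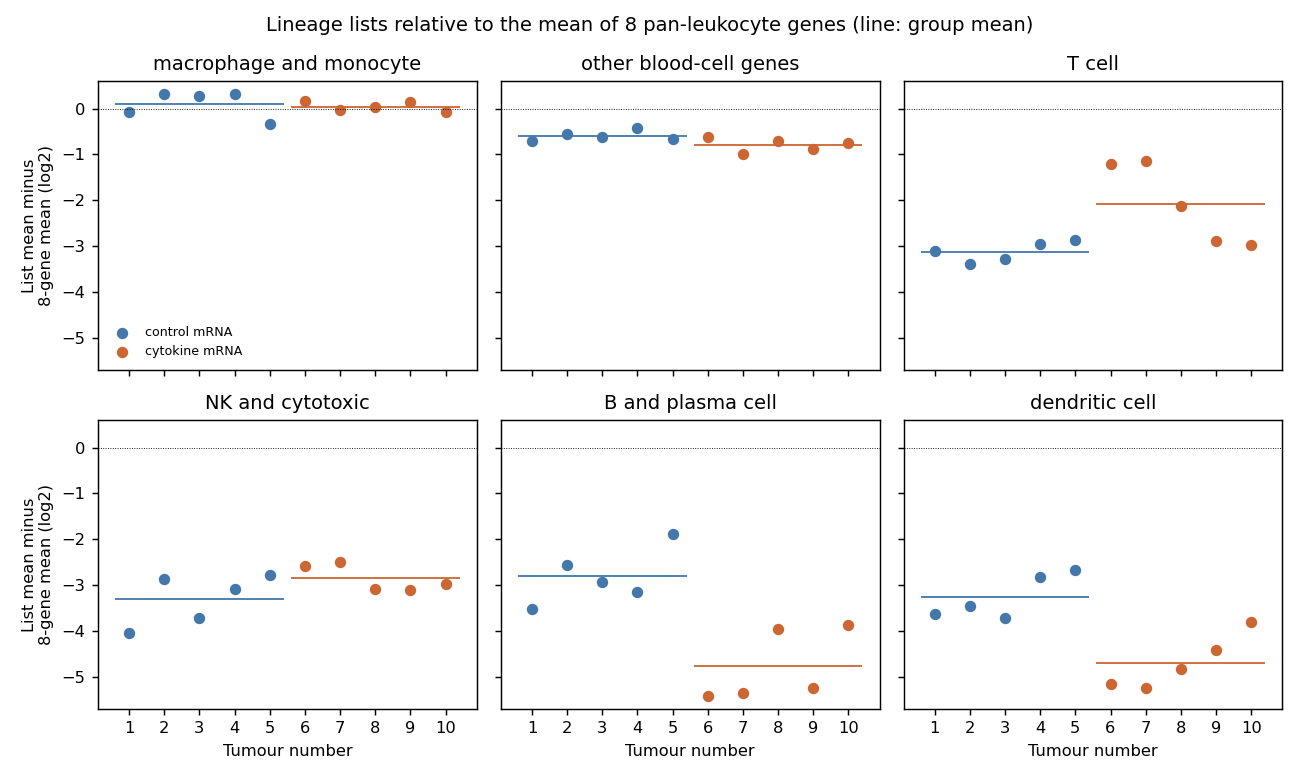
Mean log2(TPM + 1) of each lineage list minus the mean of the 8 members other than Arhgdib, per tumour, with control tumours in blue, cytokine tumours in orange and a line at each group mean. The macrophage means are 0.10 and 0.05 in control and cytokine tumours, and the T cell list is above the control range in tumours 6 to 8. The distances of lists of scarce genes depend on the pseudocount, as in the B cell and dendritic cell lists and, in control tumours, the T cell list.

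Further marker lists and the reference genes were checked beside the result. Of 8 endothelial genes and 7 fibroblast and pericyte genes none was called, and the cytokine minus control difference of their list means was 0.07 and 0.63, with the fibroblast list at 3.06 in control tumour 5 and 4.23 in cytokine tumour 10, the lowest of their groups. Of 10 melanocyte lineage genes none was called, with Tyrp1 at 508 to 6568 TPM in control and 3.16 to 7910 TPM in cytokine tumours. All 10 log2 changes were nonetheless negative, from -1.38 in Mitf to -2.14 in Dct, with a median of -1.86 and wide errors (SE 0.72 to 1.76). Averaged over the 10 genes the change was -1.82, and tumour 7, at 1.72, lay far below the 7.89 to 9.83 of the other cytokine tumours. The absence of calls therefore does not show that these genes were level. Of 3 erythroid genes tested none was called, and that list, a sign of blood in the sample, summed to 3.78 to 81.9 TPM in control and 13.7 to 148 TPM in cytokine tumours. The 6 lymph node stroma and follicle markers were at 0 in all controls and summed to 0.181 to 5.16 TPM in cytokine tumours, with Ccl21a and Ccl19 at 0 in all 10 libraries. The 5 keratinocyte markers summed to at most 8.37 TPM. The 8 reference genes, of which none was called, averaged 8.63 ± 0.08 and 7.85 ± 0.74, a difference of -0.78, so they were not level as a list. Ppia was lower without overlap, at 258 to 345 TPM in control and 16.5 to 207 TPM in cytokine tumours. The log2 changes of Tbp and Hprt were -0.02 each.

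The 10 genes outside the set whose pattern over the 10 tumours was most like the mean of the 9 members were Il6ra, Fermt3, Dennd1c, Tnfsf10, Sh2d2a, Shtn1, Sdc3, Samhd1, C1qb and Tmsb4x. Likeness was the mean absolute difference between log2(TPM + 1) values after each gene and the mean had been centred on its average over the 10 libraries. It was 0.15 to 0.20 for these genes, against a median of 1.45 over all genes tested. The member closest to the mean of the other 8 was Lcp1 at 0.35, and Arhgdib was the farthest at 1.19. Il6ra, a cytokine receptor subunit, was at 0.185 to 3.22 TPM in controls and 3.34 to 52.7 TPM in cytokine tumours, and Tmsb4x, the actin-binding thymosin beta 4, was at 241 to 677 and 805 to 6637 TPM. In these genes tumour 7 was the highest, tumour 10 the lowest of the cytokine group and control tumour 5 the lowest of all. That order follows from choosing them by likeness to the members' mean and is no separate result.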

How the data were processed

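Messenger RNA was profiled in 10 tumours, 5 per group, assigned by the mRNA named in each library's title; titles number libraries 1 to 10 and share no number between groups. Each library is taken as 1 tumour, as the stated group size of 5 implies. Per the labels' protocols, polyA RNA was extracted with DNase treatment and made into stranded NuGEN libraries. The authors deposited TPM values, with every column summing to 1000000. Per the submitters' processing notes reads were aligned with STAR and the build was GRCh38, a human build although the symbols are mouse; the annotation and the counting program were not stated, so no coordinates come from the files. TPM keeps no depth, so depth is unknown and no counting limit is given. TPM are shares, so a rise of some genes lowers others.

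The 12497 genes reaching 1 TPM in 5 or more libraries were compared as log2(TPM + 1) by limma 3.58.1 in R 4.3.3 (eBayes with trend, two-sided), adjusted by Benjamini-Hochberg over all genes tested; folds on this scale understate changes of scarce genes. The procedure was tested on simulated data. Exact permutation tests enumerated all 252 assignments. Cd244a and Tamalin were found under Cd244 and Grasp. Genes named were all members, relatives and partners, up to 4 called genes with the largest change per further list or its 2 most abundant, and the 10 nearest in pattern; exceptions are named as such. Members and lists were chosen with earlier results of these data known. Promoters are RefSeq's, GRCm38.p6. Alternatives were other pseudocounts, filters, scalings, variance priors and weights, an exact test, and libraries left out. A further binding partner was left out of the list and is not reported here.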

Additional observations from a re-analysis of the deposited data

Results flagged for a closer look

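Within each group of 5 tumours, a value was singled out where the gap between the highest or lowest tumour and its nearest neighbour, divided by the group's whole range on the log2(TPM + 1) scale, exceeded 0.71. Of 179 groups checked 31 did so, and chance alone singles out about 1 in 20 groups; the genes are not independent of each other.

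Control tumour 5 stood low in 13 of the 31. Among the members it did so in Ptprc (gap ratio 0.757, at 7.63 TPM) and Cd53 (0.810, at 1.48 TPM). Other genes with a low value in that tumour were Cd2 (0.716), Spi1 (0.733), Evi2b (0.783), Fyb (0.808), Msr1 (0.851), Lyz2 (0.814), Csf1r (0.770) and Col3a1 (0.753). The list means of other blood-cell genes (0.746), macrophages and monocytes (0.814) and neutrophils (0.789) were low there as well. Without control tumour 5 the difference of the members' mean was 2.23, against 2.52 with it.

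Cytokine tumour 10 stood low in Cd53 (0.741, at 21.3 TPM), in Cytip (0.799, at 2.62 TPM) and in the fibroblast and pericyte list mean (0.811), and high in Dsp (0.809). Cytokine tumour 7 stood low in Pls3 (0.719), Tyrp1 (0.761), Dct (0.808) and the melanocyte lineage list mean (0.761). Control tumour 1 stood low in Tyrp1 (0.904), Dct (0.895) and the melanocyte lineage list mean (0.928).

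Control tumour 3 stood low in Arhgdia (0.745) and the reference list mean (0.777), and control tumour 2 stood high in Actr2 (0.890). The gap ratio was 1 where 1 control tumour alone was above 0, which held for Pls1 in tumour 1, Ptprcap in tumour 2, and S100a8 and Siglech in tumour 4.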

How the results depend on the processing

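No log2 change of a named gene among those followed through the alternatives changed sign; relatives not called, list distances and family shares were not followed. The number of members called was 7; it was 5 with all genes above 0 in any library, 8 with library quality weights, 3 to 8 with 1 tumour left out (3 without cytokine tumour 6, 4 without control tumour 4 or cytokine tumour 8), 1 without cytokine tumours 6 and 7 together, and 0 by the exact permutation test. The number of genes changed was 1304; it was 846 with all genes above 0 in any library, 2769 with quality weights, 367 to 3238 with 1 tumour left out (lowest without cytokine tumour 6, highest without tumour 10), 20 without tumours 6 and 7 together and 0 by the exact test. The share of calls that were higher, 71.0%, was 60.0% without the 50 most abundant genes, 47.8% without mitochondrial genes and 57.5% with quality weights. The difference of the members' mean was 2.52 and ran from 2.03 without tumours 6 and 7 to 3.37 for the median over members. The cause of these differences was not tested. No paired analysis was possible because the libraries are numbered 1 to 10 with no number shared between groups. TPM keep no depth, so the counting error of scarce genes such as Cytip is unknown.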
